A study of Mus musculus with 6 samples.

Results

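Cytosolic ribosomal protein genes encode the proteins that, with the ribosomal RNAs, build the large and the small subunit of the ribosome in the cytoplasm. The small subunit reads the messenger RNA, the large subunit joins the amino acids, and the acidic stalk of the large subunit recruits elongation factors. Their messenger RNAs are among the most abundant in dividing cells, begin with a pyrimidine tract through which the mTOR pathway controls their translation, and have many processed pseudogene copies in the mouse genome. Haploinsufficiency of several of them causes Diamond-Blackfan anaemia in people, and mouse mutants have defects of the skeleton, pigment and nervous system.

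The members were taken by symbol: every gene annotated as Rpl, Rps or Rplp followed by a number, without the Rps6k kinases. They were 48 of 12393 genes named by a probe set with 1 gene, 26 of the large and 22 of the small subunit, and 99 probe sets represented them. Of these genes, 41 are standard ribosomal proteins, and the others are the paralogs or copies Rpl22l1, Rpl39l, Rpl3l, Rpl7l1, Rps27l, Rps4l and Rps15a-ps6. A further 35 of 76 standard proteins, Rpl5 and Rps12 among them, are named by no probe set alone in the annotation and were not analysed singly. Where a gene had several probe sets, the one with the highest average of log2 signals stood for it. A minimum of 100 on the average signal left 45 members to test, 24 large and 21 small.

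The arrays hold brains of Swiss Albino mouse embryos at stage E11.5, 1 brain per array. The 3 control brains came from normal mothers, and the 3 brains of the diabetic group were malformed brains of embryos whose mothers had diabetes induced with streptozotocin, which kills pancreatic beta cells. Maternal diabetes and malformation therefore cannot be told apart, and the labels do not say which brains shared a litter, so the p-values measure only the spread between these brains. Control and diabetic replicates 1 and 2 were run on the chip MOE430A and form the first value table, while replicate 3 of each group was run on Mouse430A_2 and forms the second.

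Values are probe set signals, in arbitrary units, scaled per array to a trimmed mean of 500. Differences are given as log2 changes, diabetic minus control, of log2(signal + 32), taken within a table. Errors after ± are standard errors with n = 3 arrays per group, and signals are always listed in the order of replicates 1, 2 and 3. All 12 neuronal and all 10 progenitor markers were above the signal minimum. Control replicate 1 stood apart from the other arrays in 18S ribosomal RNA, with a signal of 7891 at the 3′ probe set of the transcript against 101 to 265 elsewhere. Diabetic replicate 2 stood apart in its marker genes of neurons, given below.

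Ribosomal protein transcripts lay slightly higher in the diabetic group as deposited. Of the 45 members tested, 40 had a log2 change above 0, where 52.2% of all genes did, and the median was 0.16, against 0.012 over all 8627 genes. With quantile normalization within tables, described below, 29 of 45 lay above 0 and the median was 0.022. The middle 50% of members lay between 0.11 and 0.22, and the whole range ran from -0.31 for Rps25 to 0.50 for Rpl22. No member passed limma's test: 0 of 45 had an adjusted p under 0.05 (0% of all genes, and the adjusted p of members ran from 0.654 to 0.94), and 0 had an unadjusted p under 0.05, where 7.64% of all genes did. The median standard error of a member was 0.17, as large as the median change itself.

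The shift was seen mainly in the first table. There the members' median was 0.25, with 41 of 45 above 0, and in the second table it was 0.019, with 26 of 45 higher where 53.6% of all genes were. Both diabetic arrays of the first table lay above both control arrays for 26 members, where 21% of all genes did, and for 0 members below them, where 21.8% did. Adding the second table left 16 members whose diabetic arrays were higher without overlap in both tables and 0 that were lower, against 11.3% and 10.6% of all genes. The second table holds 1 array of each group, so no overlap there gives only the direction of the difference. A limma fit with a term for the difference between the tables called 0 members (0% of all genes), with a smallest adjusted p of 0.682. There 1 of 45 members had an unadjusted p under 0.05, and 587 of 8627 genes in all did. In that fit 41 of 45 members, and 4024 of 8627 genes in all, had the lower change in the second table. The 16 members without overlap were Rpl12, Rpl27, Rpl38, Rpl39, Rpl41, Rplp0 and Rplp2 of the large and Rps2, Rps3, Rps3a1, Rps4x, Rps9, Rps19, Rps24, Rps27 and Rps29 of the small subunit.

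Within the first table the arrays lay in a row, and the step between the 2 control arrays was as large as the difference between the groups. Control replicate 2 lay 0.25 above control replicate 1 by the members' median, with 43 of 45 members higher. Diabetic replicate 1 lay 0.037 above control replicate 2, with 28 of 45 higher, and diabetic replicate 2 lay 0.18 above diabetic replicate 1, with 40 of 45 higher. So control replicate 2 and diabetic replicate 1 were nearly level, control replicate 1 was low and diabetic replicate 2 was high. The members' median was 0.067 without control replicate 1, whose 18S signal stood apart, and 0.11 without diabetic replicate 2. With both left out, a choice made after seeing the data, it was 0.025, with 26 of 45 members above 0, where 53.6% of all genes were.

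**Figure D1:**
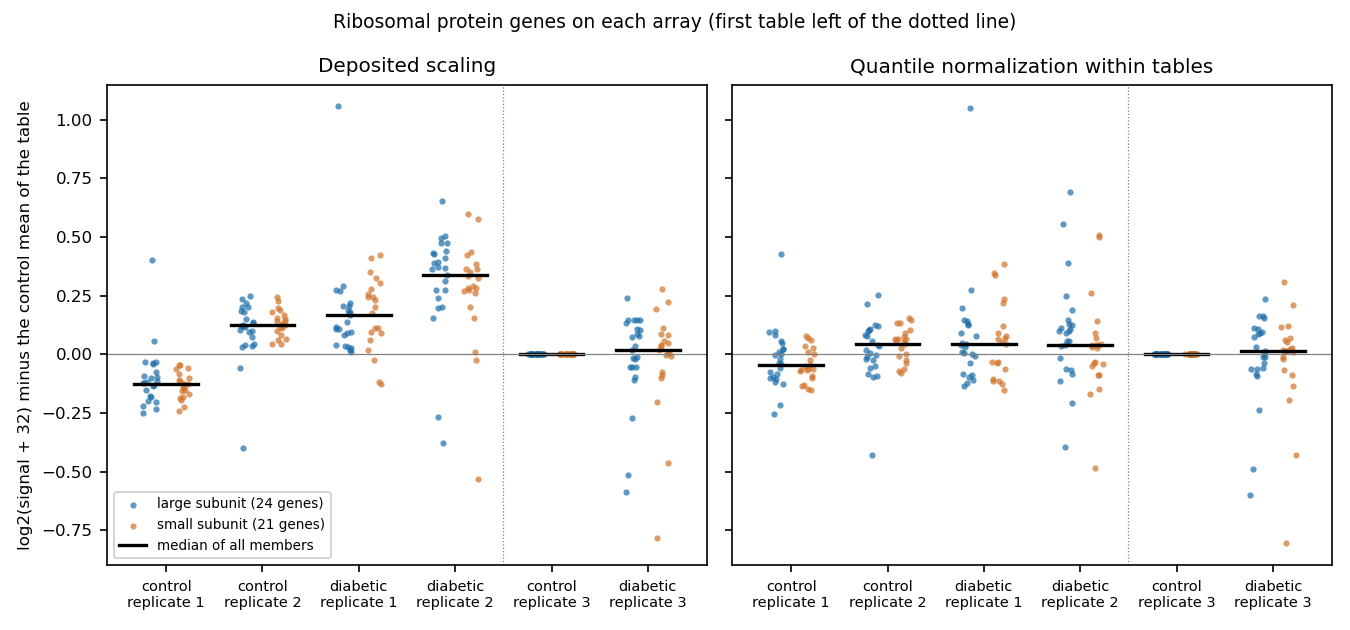
Each point is 1 of the 45 ribosomal protein genes on 1 array, as log2(signal + 32) minus the control mean of its value table (vertical axis), with deposited scaling on the left and quantile normalization within tables on the right. Black bars are medians over all members. With deposited scaling the medians of diabetic replicates 1 to 3 are 0.17, 0.34 and 0.019, and with quantile normalization they are 0.042, 0.039 and 0.014. Control replicate 3 is 0 by construction.

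The 99th percentile of all signals, which ribosomal protein probe sets help to set, differed between the arrays of the first table in the same way. It was 7039, 7880.1 and 9365 in controls and 8000.1, 8788 and 9204 in the diabetic group. Control replicate 1 had the lowest value and, within the first table, diabetic replicate 2 the highest. In the second table the percentile was lower on the diabetic array, although the members' median was 0.019 higher there. At the signal that the top 5% of probe sets exceed, the arrays of the first table were closer together, from 2535 on diabetic replicate 1 to 2629 on diabetic replicate 2, and control replicate 1, at 2569.5, was not the lowest. Probe sets that list a ribosomal protein made up 97 to 116 of the 226 probe sets in the top 1% of an array, so members and percentile are not independent. Together they held 8.36%, 9.95% and 11.2% of the summed signal in controls and 10.1%, 11.2% and 11.1% in the diabetic group. Control replicate 1 had the smallest share, and the share on diabetic replicate 2 was near that of the arrays of the second table. The median percentile rank of the members within an array moved little, from 99.45 to 99.58.

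Quantile normalization gives the arrays of a table the same distribution of signals, and with it the shift was near 0. The members' median became 0.022, with 29 of 45 above 0 where 52.2% of all genes were, against 40 of 45 with deposited scaling. Over the 45 members, normalizing all 6 arrays together gave 0.020, with 28 of 45 above 0 where 52.3% of all genes were. Between the control arrays of the first table the step became 0.090, and diabetic replicate 2 came to lie 0.0056 above control replicate 2. Since ribosomal protein probe sets are many of those at the top of the distribution, a shift shared by them is in part removed by construction. Which scaling is nearer to the RNA content of the brains was not tested.

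Large and small subunit genes had similar medians. Large subunit genes had a median of 0.19, with 21 of 24 above 0, and small subunit genes 0.16, with 19 of 21. The difference of these medians was 0.032, or 0.028 with quantile normalization within tables. On diabetic replicates 1 to 3 the medians above the control mean were 0.13, 0.37 and 0.027 for the large and 0.20, 0.29 and 0.017 for the small subunit, so the large subunit was the higher one on diabetic replicates 2 and 3 and the lower on diabetic replicate 1. The medians of log2 signal, large minus small, were -0.038, 0.062 and -0.10 in controls and 0.029, 0.079 and -0.058 in the diabetic group. In the first table control replicate 2, at 0.062, lay above diabetic replicate 1, at 0.029, so the groups overlapped. In the second table the diabetic array was the higher, at -0.058 against -0.10. As single arrays were left out, the difference of the subunit medians ran from -0.013 to 0.039, so its sign was not settled.

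Of the stalk, Rplp0, which anchors the acidic proteins to the ribosome, had signals of 10626, 11269 and 13704 in controls against 12042, 14328 and 14485 in the diabetic group. Within each table both groups kept apart, by a small step. Its log2 change was 0.20 ± 0.16, and limma gave an adjusted p of 0.746. Rplp2, an acidic stalk protein, had signals of 12650.5, 13363 and 14171 in controls against 14004, 17278 and 15560.3 in the diabetic group. Here too the groups did not overlap within a table, with a log2 change of 0.22 ± 0.16. Rpl12, which sits at the base of the stalk, had signals of 483, 555 and 522 in controls against 564, 833 and 622 in the diabetic group. Diabetic replicate 2 was the highest and diabetic replicate 1 barely above control replicate 2, and the log2 change of 0.34 ± 0.18 was 0.13 without control replicate 1 and diabetic replicate 2.

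Rpl22, a protein at the surface of the large subunit that is needed in lymphocyte development, had the highest change of all members, 0.50 ± 0.27. Its signals were 4317, 2463 and 8959.6 in controls against 6821, 4616 and 8623 in the diabetic group. Both control values of the first table were below the diabetic ones, but they differed among themselves by more than control replicate 1 and diabetic replicate 2 did, and in the second table the control brain was the higher. As single arrays were left out the change ran from 0.19 to 0.78, and its other probe set had 0.20. The paralog Rpl22l1 had 0.11 ± 0.17, split by table into 0.17 and -0.015, and its groups overlapped.

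**Figure D2:**
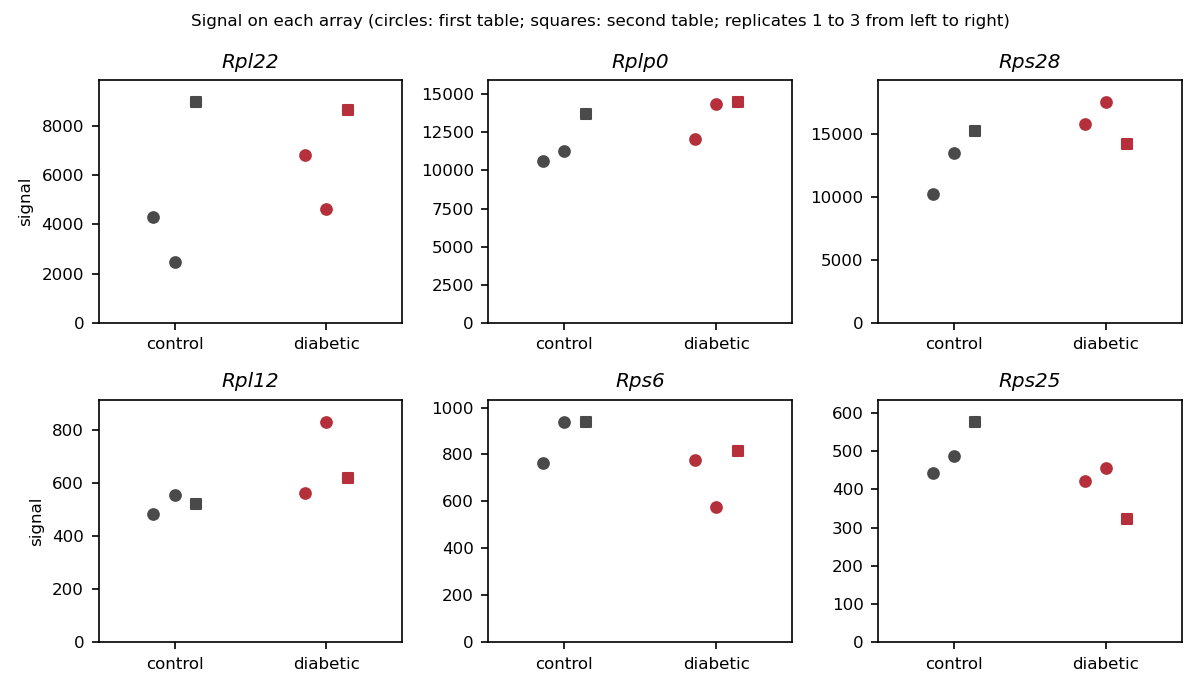
Signal (vertical axis, arbitrary units, from 0) of 6 members on each array, controls at the left and diabetic arrays at the right of each panel, circles for the first and squares for the second table. The control and diabetic arrays of Rplp0 do not overlap within a table, while Rps28 has its groups in opposite order in the 2 tables and Rps25 differs mainly in the second table, 577 against 322.

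Among the large subunit genes with known roles in development, Rpl38, whose loss in the mouse alters the axial skeleton and the translation of Hox messenger RNAs, had signals of 11245, 13351 and 15717 in controls against 13887, 15882 and 15920.4 in the diabetic group. The groups did not overlap within a table, though the second table differed by only 0.019, and the log2 change was 0.19 ± 0.16. Rpl11, which binds Mdm2 when ribosome assembly fails and so stabilizes p53, had 0.064 ± 0.18. It was 0.23 in the first and -0.27 in the second table, with signals of 7643, 9022 and 12446 in controls against 8879, 10717 and 10301 in the diabetic group. Control replicate 3 was the highest of these arrays. In the first table control replicate 2 lay above diabetic replicate 1, so the groups overlapped there. With quantile normalization within tables the change was -0.080. Rpl7a, Rpl4, Rpl41 and Rpl6, further large subunit proteins, lay between 0.16 and 0.25. Rpl39, a very small protein of the exit tunnel, had 0.29 ± 0.16, with 447, 409.9 and 119.9 in controls against 522, 619.8 and 131 in the diabetic group. Its groups did not overlap within a table, and with quantile normalization within tables it kept 0.28. Rpl8, Rpl19 and Rpl35 had 0.22, 0.21 and 0.21, all from the first table, since in the second they were at -0.10, -0.053 and -0.11. Rpl10a, Rpl13a, Rpl14 and Rpl37a lay between 0.050 and 0.16. For Rpl41, the shortest ribosomal protein, the diabetic arrays were the higher ones in both tables, with 13375, 17728 and 15122 in controls against 17755, 20253 and 16748 in the diabetic group, although in the first table control replicate 2 and diabetic replicate 1 were level.

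Several small subunit genes are linked to Diamond-Blackfan anaemia. Rps19, the gene most often affected in that disease, had signals of 5949, 7089 and 8139 in controls against 8031, 8152 and 8614 in the diabetic group. The diabetic arrays were the higher ones in both tables, with a log2 change of 0.24 ± 0.16 and an adjusted p of 0.718 in limma. Rps24 had 0.22 ± 0.16, Rps26 0.16 ± 0.16, Rps10 0.14 ± 0.16 and Rps7 0.13 ± 0.16. Of these, Rps24 had no overlap in both tables, by 0.0055 in the second, Rps26 and Rps7 had no overlap in the first table but the opposite order in the second, and Rps10 overlapped in the first table. With quantile normalization within tables the 5 genes ran from -0.054 for Rps10 to 0.17 for Rps19.

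Rps28, a small protein near the messenger RNA exit, had 0.30 ± 0.19. Its signals were 10248, 13441 and 15197 in controls against 15752, 17494 and 14148 in the diabetic group. The first table had a step of 0.50 with control replicate 1 lowest, and the second had -0.10. Rps27, a zinc finger protein of the small subunit, had the smallest unadjusted p of the members, 0.0524, and an adjusted p of 0.654 in limma, with 0.35 ± 0.16. Its signals of 186, 239 and 87.6 in controls against 291, 296 and 107 in the diabetic group did not overlap within a table, and those of the second table were less than those of the first. For its paralog Rps27l, a p53 target in human cells, the tables went opposite ways, 0.47 and -0.46.

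The remaining small subunit genes that were named lay close together. Rps2, Rps3, Rps3a1 and Rps4x, proteins of the subunit's core and messenger RNA channel, had changes from 0.19 to 0.23, with no overlap in both tables for all 4. The differences in the second table were 0.11, 0.017, 0.038 and 0.058 in that order, below the standard errors of the changes. Rps9, Rps14, Rps15, Rps20, Rps29 and Rps18 lay between 0.071 and 0.16, and of these Rps9 and Rps29 had no overlap. Rps4l, annotated as a transcribed pseudogene, had 0.21 ± 0.17 with overlapping groups.

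Below 0 were 5 members, with mean signals from 451 to 1993, where the median over all members was 11264. Whether their weak probe sets follow the transcripts as well as stronger ones was not tested. Rps25, a protein needed for translation from some internal ribosome entry sites, had -0.31 ± 0.18. Its signals were 443, 486 and 577 in controls against 422, 456 and 322 in the diabetic group. Control replicate 1 overlapped with the diabetic arrays of the first table, and the difference was larger in the second table. Rps6, a substrate of the S6 kinases whose phosphorylation, not its amount, is a readout of mTOR activity, had -0.28 ± 0.17. With 763, 937 and 940.1 in controls against 776, 575 and 813 in the diabetic group, diabetic replicate 2 was the lowest and diabetic replicate 1 lay above control replicate 1. Rpl27a had -0.22 ± 0.19, Rpl37 -0.084 ± 0.19 and Rpl7l1, a paralog that takes part in ribosome assembly, -0.066 ± 0.20, and Rpl37 was 0.13 in the first table alone. Limma's adjusted p for these 5 genes ran from 0.701 to 0.936.

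**Figure D3:**
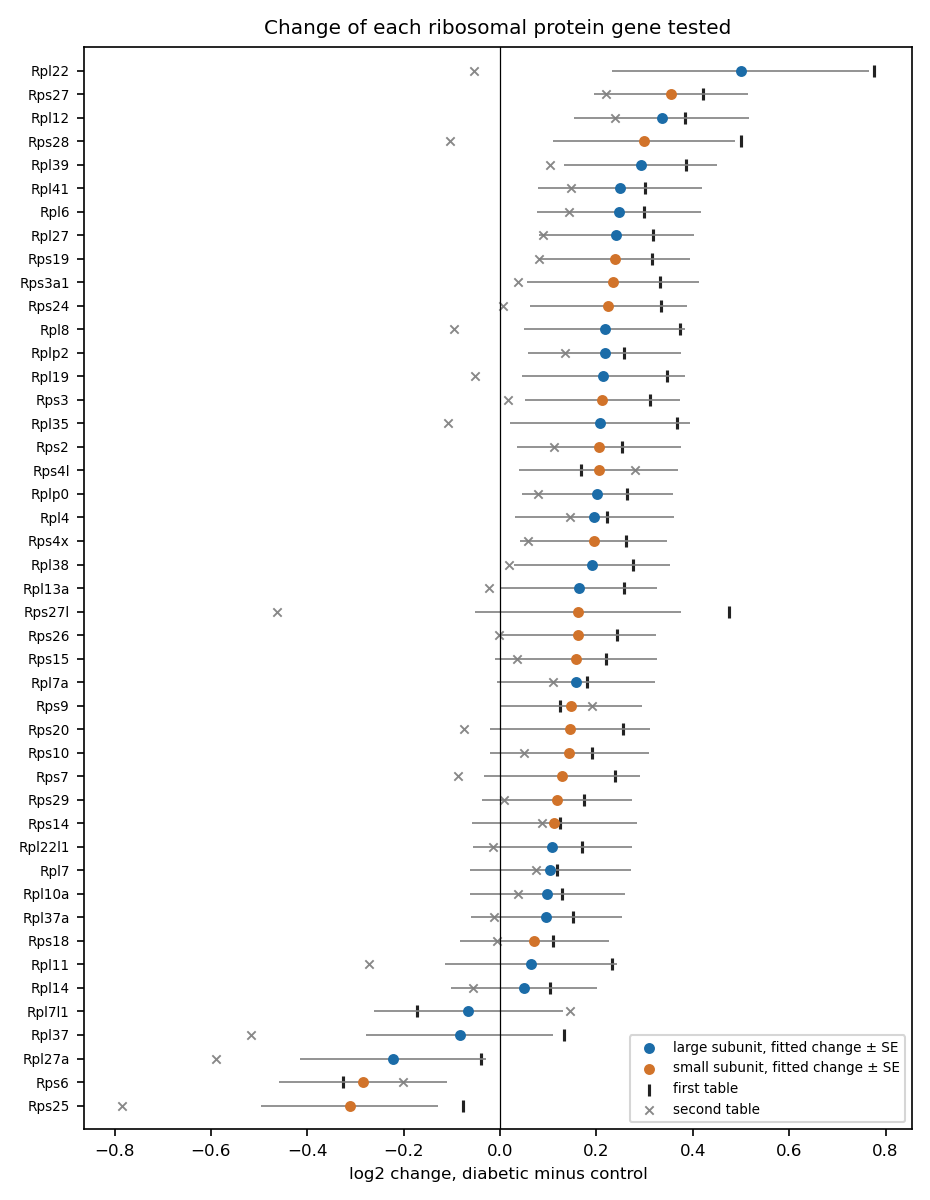
Log2 change, diabetic minus control (horizontal axis), of each of the 45 members tested, with its standard error as a grey bar, blue for the large and orange for the small subunit. Black ticks give the first table and grey crosses the second. The fitted changes run from -0.31 to 0.50, most crosses lie left of their ticks, and 26 of 45 crosses lie above 0.

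Split by the mean signal of the probe set used, a split made after the values were seen and given with no test, 34 members had at least 5000, 3 had 1000 to 5000 and 8 had less than 1000. All 34 of the first kind had a change above 0, with a median of 0.19 and a range from 0.064 to 0.50. Over all genes tested, of any signal, 52.2% lay above 0. The share among all genes of such high signal was not counted, so the 34 are not set against genes of like signal. Of the 8 genes under 1000, 5 lay above 0 and they ran from -0.31 to 0.35. After quantile normalization within tables, 23 of the 34 lay above 0, with a median of 0.019.

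**Figure D4:**
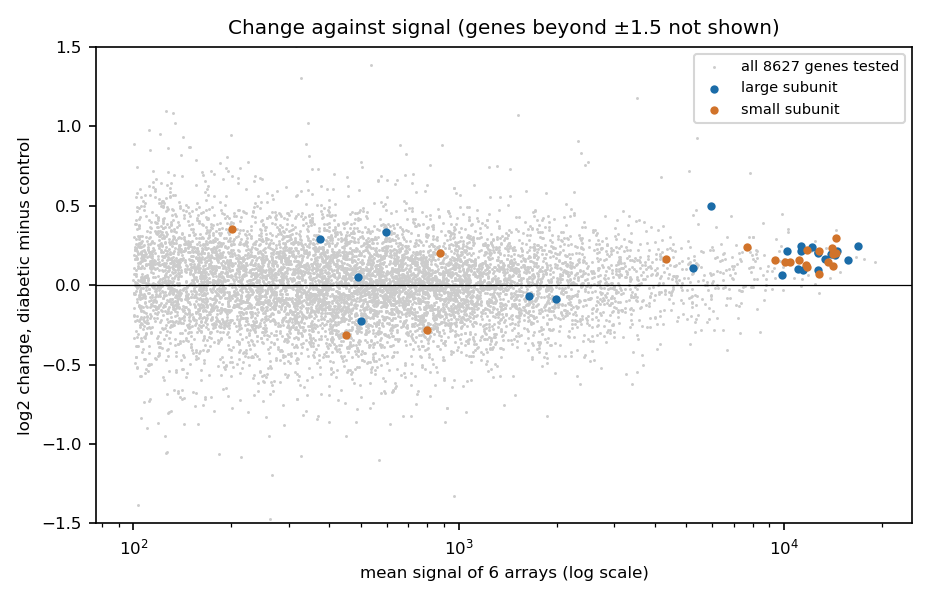
Log2 change against mean signal over 6 arrays (horizontal axis, log scale) for all 8627 genes tested in grey and the members in blue and orange. The 34 members with a mean signal of at least 5000 form a compact group above 0 with a median of 0.19, and the 11 others scatter on both sides.

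Several probe sets of a gene did not always give the same change. Of 19 members with more than 1 probe set above a mean signal of 100, 8 had probe sets of both signs: Rpl13a, Rpl27, Rpl41, Rpl7, Rpl7l1, Rps24, Rps27l and Rps9. For Rpl27 the probe set used had 0.24 and the other 2 had -0.18 and -0.21. For Rpl7 the values were 0.10, -0.088 and -0.17, although all 3 had high mean signals, from 8022 to 10999. The 4 probe sets of Rpl41 had 0.25, 0.25, -0.035 and -0.21, those above 0 being the ones of high signal. In Rps15, Rps20 and Rps7, by contrast, the probe sets above the signal minimum differed by at most 0.018.

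Probe set names say how specific the probes are: those ending in _x_at hold probes that may also bind other transcripts, those in _s_at are shared by several transcripts, and those in _a_at read variants of 1 gene. Of the 99 probe sets of the members, 40 ended in _x_at, 28 in _a_at, 2 in _s_at and 29 in a plain _at. A mean signal of at least 5000 was reached by 31, 24, 1 and 5 of these. With plain _at probe sets alone, 20 members could be tested, with a median of 0.15 and 14 above 0. The 102 probe sets that list a ribosomal protein together with other genes cannot name a gene. Of these, 96 had a mean signal of at least 100, and as a group they lay like the members, with a median of 0.18 and 84 above 0, or 0.29 and -0.010 by table.

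The rule leaves out the ribosomal proteins Rpsa and Fau, whose symbols carry no number. Rpsa, the small subunit protein also known as the laminin receptor, had signals of 10929.5, 12905 and 14069.7 in controls against 14238, 18787 and 15353 in the diabetic group. The diabetic arrays were the higher in both tables, with a log2 change of 0.35 ± 0.18. Fau, a fusion of a ubiquitin-like domain with a small subunit protein, had 0.45 ± 0.18, with 7174, 10214 and 7683 in controls against 10674, 12012 and 11138 in the diabetic group. These too did not overlap within a table, and the change was 0.31 to 0.60 as single arrays were left out, with an adjusted p of 0.647 in limma.

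Among members with 1 start in RefSeq (assembly GRCm38.p6), sequences around the start are shown for the 4 genes with the highest and the 4 with the lowest change. Of the 48 members, 41 had an entry, with 49 windows of 250 bases before to 50 after a start. Each line below runs from 40 bases before the start to 20 bases after it. Capitals mark CTTTC on the printed strand, which is a common core of the pyrimidine tract, and CTTCCG or its reverse complement CGGAAG, the core that ETS family factors bind.

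Rps27: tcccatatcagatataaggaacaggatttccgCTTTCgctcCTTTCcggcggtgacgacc
Rpl12: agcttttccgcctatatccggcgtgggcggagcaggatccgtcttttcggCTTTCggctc
Rps28: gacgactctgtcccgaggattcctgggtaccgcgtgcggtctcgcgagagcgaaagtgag
Rpl39: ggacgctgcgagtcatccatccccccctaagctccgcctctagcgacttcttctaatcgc
Rps25: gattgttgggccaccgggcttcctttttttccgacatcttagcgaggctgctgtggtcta
Rps6: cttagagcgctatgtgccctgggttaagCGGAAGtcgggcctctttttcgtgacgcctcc
Rpl27a: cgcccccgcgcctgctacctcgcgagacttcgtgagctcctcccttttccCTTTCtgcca
Rpl37: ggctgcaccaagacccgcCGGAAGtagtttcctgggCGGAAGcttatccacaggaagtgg

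The Rps27 window lies at chr3:90213629-90213688 on the minus strand. The Rpl12 window lies at chr2:32961672-32961731 on the plus strand. The Rps28 window lies at chr17:33824543-33824602 on the minus strand. The Rpl39 window lies at chrX:37085203-37085262 on the minus strand. The Rps25 window lies at chr9:44407674-44407733 on the plus strand. The Rps6 window lies at chr4:86857348-86857407 on the minus strand. The Rpl27a window lies at chr7:109519155-109519214 on the plus strand. The Rpl37 window lies at chr15:5116573-5116632 on the plus strand. Capitals appear in Rps27 and Rpl12 of the higher group and in Rps6, Rpl27a and Rpl37 of the lower group. Over the whole windows, CTTTC was found on the strand that reads like the transcript in 61.2% of the members' windows and in 34.8% of all 32851 windows of the same length, or 81.6% and 57.3% with both strands. From 30 bases before to 20 after the start the shares for that strand were 24.5% and 6.86%. CTTCCG on either strand was in 59.2% of members' windows against 16.9% of all, and TATAA on either strand in 26.5% against 24.9%. CTTTC and CTTCCG can overlap by 1 letter, windows were not matched for base composition, and a match is a run of letters rather than a shown site.

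Genes that build or use ribosomes were read from the same fit. Ribosome biogenesis factors, which make and process ribosomal RNA and assemble the subunits, had a median of 0.13 over 35 genes, with 27 above 0. Nolc1, a nucleolar chaperone, had 0.58 ± 0.23, with 522, 934 and 913 in controls against 1155, 1325 and 1017 in the diabetic group. Control replicate 1 was the lowest array, and the change was 0.29 to 0.79 as single arrays were left out. Noc2l, a nucleolar factor that also inhibits histone acetylation, had 0.66 ± 0.28, but its tables opposed each other with 1.15 and -0.31. Translation factors had a median of 0.15 over 33 genes, with 27 above 0. Among them Eef1d, an exchange factor for elongation, had 0.38 ± 0.16, Eif3k, a subunit of the scaffold initiation factor, 0.36 ± 0.16, and Eif4g2, an initiation factor used without the cap-binding protein, -0.29 ± 0.15. On diabetic replicates 1 to 3 the medians were 0.21, 0.21 and 0.0082 for biogenesis and 0.12, 0.25 and 0.12 for translation factors, so biogenesis factors shared the members' near-0 value in the second table. With quantile normalization within tables these lists had 0.13 and 0.12, against 0.022 for the members. These values are not directly comparable, because the members lie at the top of the distribution that this normalization makes equal. Median signals were 11264 for the members, 971 for biogenesis and 4179 for translation factors. In limma 0 genes of either list passed (0% of all genes), and 2 of 35 and 2 of 33 had an unadjusted p under 0.05, where 7.64% of all genes did.

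Regulators of ribosome production by growth signals had a median of 0.10 over 16 genes, 9 above 0. Mxd4, an antagonist of Myc, had -0.79 ± 0.21, with 373, 426 and 497 in controls against 266, 148 and 318 in the diabetic group. Every diabetic array was below the controls of its table, yet limma's adjusted p was 0.527. Tsc1, an inhibitor of mTOR, had -0.44 ± 0.17, and Pdcd4, an inhibitor of the helicase of initiation, -0.37 ± 0.15. Rps6kb2, an S6 kinase and the gene of next smallest p, was higher, with 0.32 ± 0.16. The whole list ran from -0.79 to 0.91. The p53 list, which answers to failed ribosome assembly, had a median of -0.12 over 11 genes with 4 above 0. Its genes of smallest p were Perp with -0.60 ± 0.17, Trp53inp1 with -0.58 ± 0.20 and Mdm4, a p53 inhibitor, with -0.40 ± 0.16. Of these 2 lists 0 genes passed in limma, and 3 of 16 and 3 of 11 had an unadjusted p under 0.05, where 7.64% of all genes did.

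The 74 mitochondrial ribosomal protein genes, which build the separate ribosome of mitochondria, had a median of 0.021, with 42 above 0. Their median was 0.057 in the first and 0.034 in the second table. In limma 0 passed and 2 of 74 had an unadjusted p under 0.05, where 7.64% of all genes did. No test of the difference between both gene families was made, since the members were chosen with results known.

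Markers of other cell types were read beside the members. Summed signals of 12 neuronal markers were 16228 to 17629 in controls and 8885 to 19176 in the diabetic group. Their medians were -0.44, -0.82 and 0.033 on diabetic replicates 1 to 3. So the array with the highest ribosomal protein signals of the first table, diabetic replicate 2, was the lowest in neuronal markers. The other arrays of that table did not line up in this way. Control replicates 1 and 2, 0.25 apart in the members, had neuronal sums of 16429 and 16228. Diabetic replicate 1 had the neuronal median of -0.44, with the members only 0.037 above control replicate 2. In the fit over all arrays, 1 of the 12 neuronal changes lay above 0. Summed signals of 10 of 11 erythroid markers were 43578 to 52732 in controls and 50405 to 57731 in the diabetic group, with medians of 0.077, -0.28 and 0.34 and 8 of 10 changes above 0. For 10 progenitor markers the sums were 21764 to 27413 and 26164 to 27207, with 6 changes above 0. Mesenchyme and meninges markers had sums of 17472 to 21684 against 14367 to 18005, with 0 of 14 above 0. Endothelial sums were 2684 to 3657 against 2942 to 3426, and macrophage sums 999 to 1514 against 918 to 1395. On the arrays but under the signal minimum were Hba-a1, Tie1 and Aif1. In whole brains fewer cells of a type and less RNA per cell cannot be told apart, and the part of these cell types in the members' values was not tested.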

How the data were processed

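Total RNA of 6 embryonic brains was hybridized to Affymetrix arrays. The authors deposited probe set intensity on a linear scale, 6 columns in 2 tables, made with GCOS per the submitters' processing notes. GCOS' version, its algorithm and how it treated background: not given in the sources used here. Chip types are per the file headers of the run settings. Each array was brought to a trimmed mean of exactly 500 (2% removed at each end), a shift of at most 0.0363%, before log2(signal + 32). Of 22690 probe sets, 20380 name 1 gene, 691 several and 1555 none in the platform annotation, which can be old. RefSeq held 20364 of the 20380, with 0 symbols changed.

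Limma 3.58.1 (R 4.3.3) was run on 8627 genes, each with an average signal of 100 or more, as a moderated two-sided test with the table as a block. P-values were adjusted over all of them by Benjamini and Hochberg, with a threshold of 0.05. Residual degrees of freedom were 3, and the prior was worth 6.48. Arrays give no counting depth, so their number limits the precision, and the median standard error was 0.17. The script was tested on simulated data.

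The members and lists were chosen with earlier results of these data known, so their medians and counts are descriptions without p-values. Named members were those with the 8 highest and 8 lowest changes, the 4 of highest signal per subunit, stalk genes, those without overlap in both tables or with probe sets of both signs, paralogs, and genes with known roles in disease or development. Others named are Rpsa, Fau and up to 4 genes of smallest p per related list. Rpl4, Rpl8, Rpl10a, Rpl19, Rpl35, Rpl37a, Rps14 and Rps15 were named after their values were seen. Alternatives were other scalings, pseudocounts, filters, probe set choices, blocks, array weights, and arrays left out.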

Additional observations from a re-analysis of the deposited data

How the results depend on the processing

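Limma called 0 members under every alternative that allows a test, and 0 genes in all except with control replicate 1 and diabetic replicate 2 both left out, an alternative added after seeing the data, which called 2 of 8627 genes and leaves 1 residual degree of freedom. The members' median stayed above 0 throughout, from 0.019 in the second table to 0.25 in the first, and was 0.12 with array weights. Members above 0 numbered 40 as reported, 26 in the second table alone, 26 with those 2 arrays left out, and 14 of the 20 that plain _at probe sets represent. The small subunit median of 0.16 became 0.017 with quantile normalization within tables, 0.010 over all 6 arrays and 0.017 in the second table. The large subunit median of 0.19 fell as well, to 0.044, 0.046 and 0.027 in the same order. The replicate number as a block, which contains the table, gave the same members' median of 0.16 and 0 calls, with 1 member at an unadjusted p under 0.05; over all genes, same-numbered arrays of the first table deviated with a correlation of -0.0091, and over the 45 members of 0.22, but with 2 pairs and no shared source in the labels the numbers were not taken as pairs. Signs of tested members turned as follows, and the cause was not tested beyond what an alternative leaves out by construction. With quantile normalization within tables log2 changes were -0.056 for Rpl10a, -0.080 for Rpl11, -0.022 for Rpl13a, -0.071 for Rpl37a, -0.042 for Rpl7, -0.037 for Rpl7a, -0.054 for Rps10, -0.044 for Rps14, -0.081 for Rps18, -0.049 for Rps29, -0.022 for Rps7. Over all 6 arrays they were -0.053 for Rpl10a, -0.091 for Rpl11, -0.034 for Rpl13a, -0.067 for Rpl37a, -0.0016 for Rpl38, -0.037 for Rpl7, -0.022 for Rpl7a, -0.050 for Rps10, -0.038 for Rps14, -0.070 for Rps18, -0.043 for Rps29, -0.023 for Rps7. With the mean of all probe sets they were -0.049 for Rpl27, -0.050 for Rpl7, 0.10 for Rpl7l1, and with plain _at probe sets -0.21 for Rpl41, -0.0053 for Rps24. Array weights gave -0.014 for Rps14. The first table alone gave 0.13 for Rpl37, and the second -0.27 for Rpl11, -0.022 for Rpl13a, -0.056 for Rpl14, -0.053 for Rpl19, -0.055 for Rpl22, -0.015 for Rpl22l1, -0.11 for Rpl35, -0.013 for Rpl37a, 0.14 for Rpl7l1, -0.10 for Rpl8, -0.0060 for Rps18, -0.075 for Rps20, -0.0025 for Rps26, -0.46 for Rps27l, -0.10 for Rps28, -0.087 for Rps7. With control replicate 1 and diabetic replicate 2 both left out they were -0.042 for Rpl10a, -0.15 for Rpl11, -0.040 for Rpl14, -0.059 for Rpl22l1, -0.025 for Rpl35, -0.030 for Rpl37a, -0.044 for Rpl7, -0.010 for Rps10, -0.062 for Rps14, -0.022 for Rps15, -0.043 for Rps18, -0.019 for Rps20, -0.11 for Rps27l, -0.010 for Rps7. As single arrays were left out, changes ran from -0.062 to 0.23 for Rpl11, -0.018 to 0.10 for Rpl14, -0.27 to 0.13 for Rpl37, -0.014 to 0.21 for Rpl7, -0.18 to 0.11 for Rpl7l1. The pseudocount, the filter, median scaling and the choice by linear mean turned no sign. With 3 arrays a group and a median standard error near the members' median, changes of that size could not be told from the spread between arrays.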

Other observations

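One probe set of Rps10, chosen here after its values were seen, went far from the other 5 of that gene. It had signals of 714, 4165 and 10331 in controls against 4948, 9761 and 9225 in the diabetic group, and its log2 change was 1.27, against 0.14, 0.18, 0.19 and 0.25 for the other probe sets of Rps10 with high signal and 0.40 for the one of low signal. Control replicate 1 was the lowest array, and what sets this probe set apart was not tested.

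The members Rpl3l, Rpl39l and Rps15a-ps6 were left out of the main fit by the signal minimum. Rpl3l, a paralog of Rpl3 made in muscle, had signals of 6.57, 9.23 and 7.2 in controls against 56.5, 8.78 and 3.21 in the diabetic group, Rpl39l, a paralog of Rpl39 made in testis, had 8.3, 12 and 2.78 in controls against 23.5, 4.61 and 3.03 in the diabetic group, and Rps15a-ps6 had 10.3, 7.6 and 40 in controls against 7.79, 9.2 and 18 in the diabetic group. All lay under the minimum of 100, and a single array, diabetic replicate 1 for Rpl3l and Rpl39l and control replicate 3 for Rps15a-ps6, held the highest value.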
